A study of Mus musculus with 4 samples.

Results

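The 5 genes Eef1a1, Eef1b2, Eef1d, Eef1g and Eef2, which encode the factors that carry out peptide chain elongation in the cytosol, and Tpt1, which encodes the translationally controlled tumour protein, were chosen by their gene symbols as highly expressed genes. All 6 were found among the 13831 symbols of the deposited table. A reference table of mouse gene names pairs these symbols with the Ensembl genes ENSMUSG00000037742.14, ENSMUSG00000025967.16, ENSMUSG00000055762.16, ENSMUSG00000071644.10, ENSMUSG00000034994.10 and ENSMUSG00000060126.14, in that order. Poly(A) tail lengths had been measured on single RNA molecules from mouse embryonic stem cells labelled with the J1 background, grown in serum medium with the cytokine LIF and given no treatment. Cells that lacked Mov10, an RNA helicase (knockout, KO), were set beside wild type cells (WT), with 2 replicate libraries of each genotype (WT 1 and WT 2, KO 1 and KO 2). The labels give neither the KO clone nor whether replicates came from separate cultures, so a p-value measures only the spread between these libraries, which may be technical. Native RNA was read strand by strand on a nanopore (direct RNA sequencing). Each read is 1 molecule, so read numbers of different genes were compared without division by length. The members had 39838 reads in all, from 1.94% to 2.37% of the reads of a library.

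Elongation is a cycle. eEF1A, the product of Eef1a1, brings aminoacyl-tRNA to the ribosome as a complex with GTP. The eEF1B complex recharges it with GTP: Eef1b2 and Eef1d encode its exchange factor subunits, and Eef1g a subunit that holds the complex together. eEF2 then moves the ribosome along the messenger RNA. The messenger RNAs of these factors and of Tpt1 are textbook 5′ TOP messages, like those of ribosomal proteins: they begin with a C and a run of pyrimidines, and mTOR controls their translation through that start, in part by way of the RNA-binding protein Larp1. A poly(A) tail is added in the nucleus, is bound by poly(A)-binding protein and shortens in the cytosol.

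Stretches near the annotated gene start are shown because the class is defined by its first bases. They come from the members in which a search found a C followed by at least 4 pyrimidines within the 50 bases after the RefSeq gene start. Promoter windows of GRCm38.p6 matched Eef1a1, Eef1b2, Eef2 and Tpt1 of the members. Capitals mark the longest such run on the gene's strand, and each line gives 30 bases, 5′ to 3′.
Eef2, chr10:81176636-81176665, plus strand: cgtcagcggtCTCTTCCgccgcagccgccg
Tpt1, chr14:75845276-75845305, plus strand: cggtgacgtagccgagcgtgCCCTCTatat
Eef1b2, chr1:63176851-63176880, plus strand: tgcgtccgagcgCTTTCgttcaactccggc
The run was 7 bases long and began at base 16 after the annotated start in Eef2, 6 bases long from base 41 in Tpt1, and 5 bases long from base 33 in Eef1b2. Such a run of 5 or more bases was found in 51.3% of all 32851 windows, of 6 or more in 33.3% and of 7 or more in 20.6%. The window of Eef1a1 held none within those 50 bases. None of the marked runs begins at the annotated start, so they are a description of the window and not the 5′ end of a message.

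The libraries held between 351133 and 683239 reads with a tail length above 0. Mov10 itself had 26 and 14 reads in WT 1 and WT 2, and 0 and 1 in KO 1 and KO 2. All 9 stem cell markers examined were detected in every library, with a summed level of 7190 to 9600 RPM (reads of the gene scaled to 1000000 reads of the library), against 5.70 to 14.0 RPM for 8 fibroblast markers, of which all but Thy1 were at 0, and 1.46 to 5.70 RPM for 6 primitive endoderm markers. The median tail over all reads was 97.3 nt in WT 1, 105.6 nt in WT 2, 105.8 nt in KO 1 and 98.1 nt in KO 2, so the replicates of a genotype stood further apart than the genotypes did.

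Eef1a1 had by far the most reads of the 6 genes. It gave 10811 RPM in WT 1 and 9019 RPM in WT 2, against 8168 RPM in KO 1 and 7877 RPM in KO 2, and it ranked 2 among all genes in both WT libraries, 5 in KO 1 and 6 in KO 2. Both KO libraries lay below both WT libraries, as they did for 20% of all genes tested for read number on the scaled counts used further on. Tpt1 had 5030, 4067, 4435 and 4318 RPM in the same order, and Eef1b2 had 4493, 4736, 4414 and 4067 RPM. These neighbours were not separate, since Tpt1 was higher than Eef1b2 in 3 of 4 libraries.

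The remaining elongation factors were less abundant. Eef1g had 1638, 1507, 1301 and 1577 RPM in WT 1, WT 2, KO 1 and KO 2. Eef2 had 1244, 943, 1004 and 907 RPM, and Eef1d 526, 755, 686 and 667 RPM. Each of the steps Eef1d, Eef2, Eef1g, Eef1b2 and from Tpt1 to Eef1a1 was upward in 4 of 4 libraries. Among the subunits of eEF1B the messages were thus unequal, with a mean over the libraries of 4428 RPM ± 277 (SD, n = 4) for Eef1b2, 1506 RPM ± 147 for Eef1g and 659 RPM ± 96.2 for Eef1d.

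**Figure D1:**
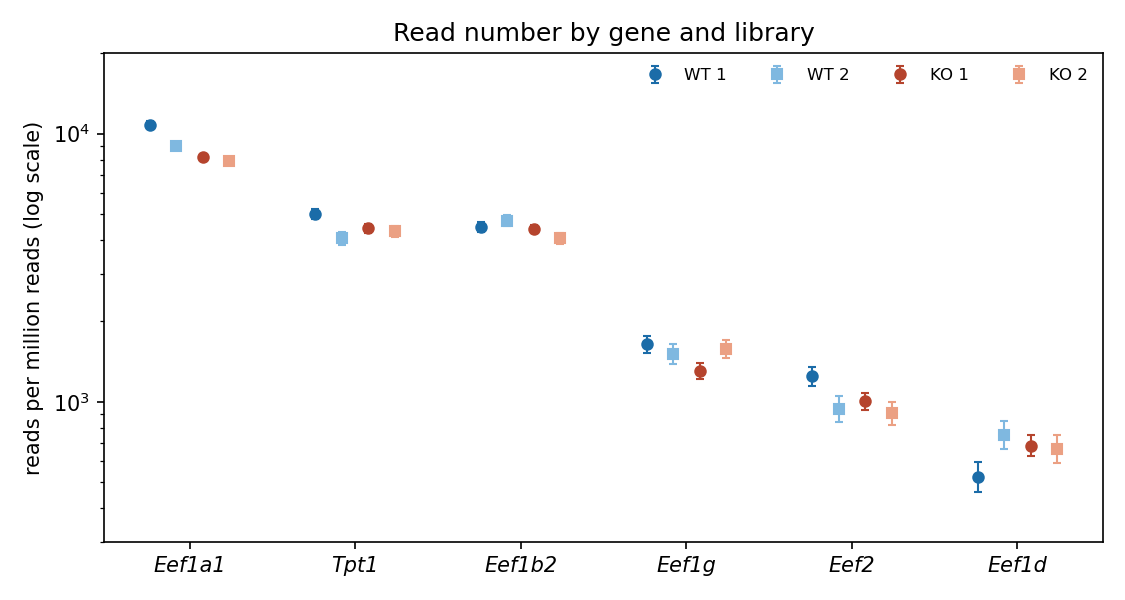
RPM, on a log scale, of the 6 genes in the 4 libraries, with bars for exact 95% binomial intervals, which cover counting error only. Eef1a1 lies between 7877 and 10811 RPM, Tpt1 and Eef1b2 overlap, and Eef1d is lowest.

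Tail lengths placed the members in another order. Eef1a1 had the longest tails on average, with medians of 99.3 nt in WT 1, 106.2 nt in WT 2, 108.3 nt in KO 1 and 101.4 nt in KO 2. It was the only member above the median of all reads in every library, by 0.580 to 3.32 nt. Its 95% order-statistic intervals over reads were narrow, for example from 97.8 to 101.0 nt in WT 1, so the spread of 4.15 nt (SD, n = 4) between libraries exceeded read sampling. In WT 2 the interval, from 104.1 to 108.5 nt, held the median of all reads. High values fell in WT 2 and KO 1 and low ones in WT 1 and KO 2, the same libraries that were high and low over all reads.

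Eef1g followed with medians of 90.6 nt in WT 1, 104.6 nt in WT 2, 104.7 nt in KO 1 and 96.6 nt in KO 2, with the same high and low libraries. Tpt1 varied less, with 99.8, 99.7, 101.1 and 94.96 nt in the same order. The medians of Eef2 were 96.7, 94.8, 100.8 and 93.9 nt. In both, WT 1 was not low. Eef1a1 was longer than Eef1g and than Eef2 in 4 of 4 libraries, and Tpt1 was longer than Eef2 in 4 of 4, by 0.245 to 4.94 nt. Eef1a1 and Tpt1 were not separate, with Eef1a1 longer in 3 of 4 libraries. Eef1g and Tpt1 were not separate, with Eef1g longer in 3 of 4 libraries and a mean difference of 0.281 nt ± 6.44 (SD, n = 4).

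The exchange factor messages Eef1b2 and Eef1d had the shortest tails. Eef1b2 had medians of 88.7 nt in WT 1, 89.9 nt in WT 2, 88.9 nt in KO 1 and 80.8 nt in KO 2, with only KO 2 apart from the others. It was shorter than Eef1a1 in 4 of 4 libraries, by 16.7 nt ± 4.47 (SD, n = 4), and shorter than Eef2, Tpt1 and Eef1g in 4 of 4. Its median minus that of all reads was -8.60 nt in WT 1, -15.7 nt in WT 2, -16.9 nt in KO 1 and -17.3 nt in KO 2. On this measure WT 1, and not KO 2, stood apart. Among 227 genes with at least 200 reads in each library, 7.05% to 15.9% had a shorter median than Eef1b2, and 51.1% to 63.0% a shorter one than Eef1a1.

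Eef1d had medians of 66.8 nt in WT 1 (95% interval over reads 63.0 to 76.7 nt), 92.0 nt in WT 2, 86.7 nt in KO 1 and 91.0 nt in KO 2. WT 1 was low by itself, and its interval did not meet those of the other libraries, the nearest of which began at 81.8 nt in KO 2. The departure from the mean of the other libraries was -0.43 on the log2 scale, the lowest value among the 227 genes, whose median departure in WT 1 was -0.08. This comparison was made after the value had been seen. The main Eef1d transcript alone gave 68.0 nt in WT 1 against 87.7 to 89.8 nt in the others, and of 7 Eef1d transcripts with at least 20 reads, 5 had their lowest median in WT 1, on as few as 2 reads there. Eef1d and Eef1b2 were not separate, each being shorter in 2 of 4 libraries.

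**Figure D2:**
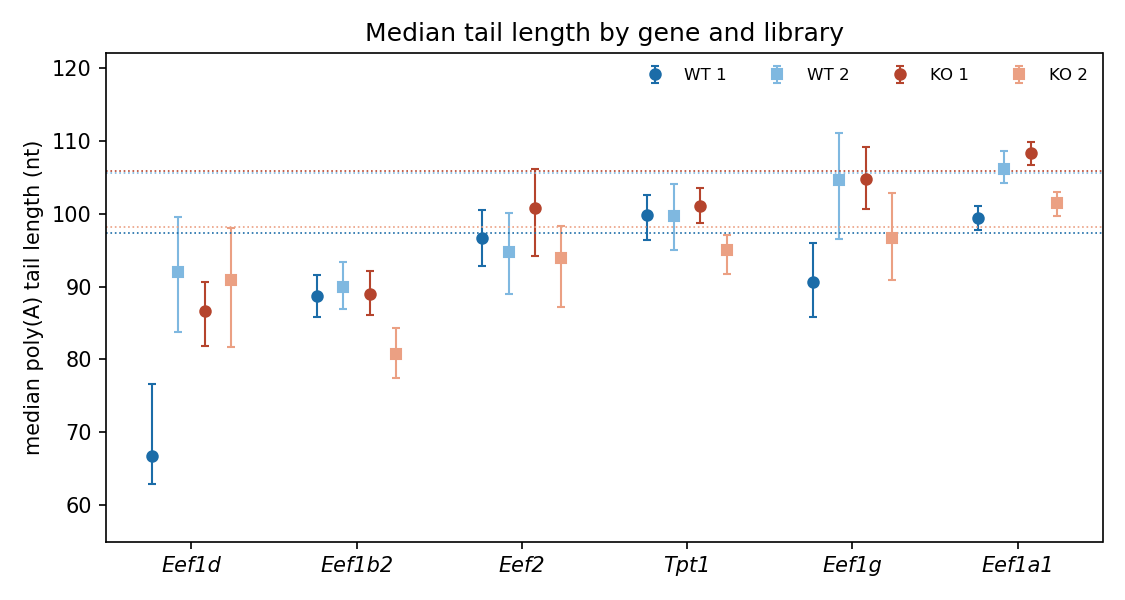
Median poly(A) tail length in nt of each gene in the 4 libraries, with exact 95% order-statistic intervals over reads, and dotted lines for the median of all reads of each library. Genes stand in order of their mean, from Eef1d, with WT 1 alone at 66.8 nt, to Eef1a1, between 99.3 and 108.3 nt.

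Medians hid a difference in the width of the distributions. Tails under 30 nt made up 4.46% and 4.93% of Eef1b2 reads in WT 1 and WT 2, and 4.68% and 6.69% in KO 1 and KO 2, the highest share of the 6 genes in every library. For Eef1a1 the shares were 0.484%, 1.11%, 0.358% and 0.679%, the lowest in every library. The gap between these genes was 4.53 percentage points ± 1.01 (SD, n = 4). The Wilson 95% intervals were far apart, for example 3.63 to 5.46% for Eef1b2 and 0.323 to 0.725% for Eef1a1 in WT 1. Eef2 had 0.729% to 1.21% and Tpt1 0.858% to 2.10%, while Eef1d had 1.49% to 3.46% and Eef1g 1.57% to 3.89%. The shares of Eef2 rested on 3 to 5 reads per library, and its intervals overlapped those of Eef1a1 in every library. RNA had been selected on oligo(dT) beads, so the shares of short tails apply to RNA that bound the beads.

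Long tails were also present in Eef1b2, at shares under those of the typical gene. Tails of 150 nt or more made up 14.4% and 19.7% of its reads in WT 1 and WT 2, and 19.96% and 12.3% in KO 1 and KO 2, where the medians over the 227 genes were 16.0%, 21.5%, 20.3% and 17.1% in the same order. For Eef1a1, whose median was longer, these shares were 13.5%, 22.1%, 21.1% and 15.5%. The ratio of the upper to the lower quartile of Eef1b2 was 2.30, 2.31, 2.42 and 2.34, and 92.5% to 99.6% of the 227 genes had a smaller ratio. For Eef1a1 it was 1.78, 1.91, 1.85 and 1.80, with 14.1% to 41.4% of genes below. Eef1g was broad as well, with 74.4% to 85.0% of genes below. The distance between its quartiles was 70.7 to 75.8 nt, against 69.15 to 81.15 nt for Eef1b2. In bins of 20 nt, Eef1b2 reads were most frequent at 40 to 60 nt in every library, where Eef1a1 peaked at 80 to 120 nt.

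**Figure D3:**
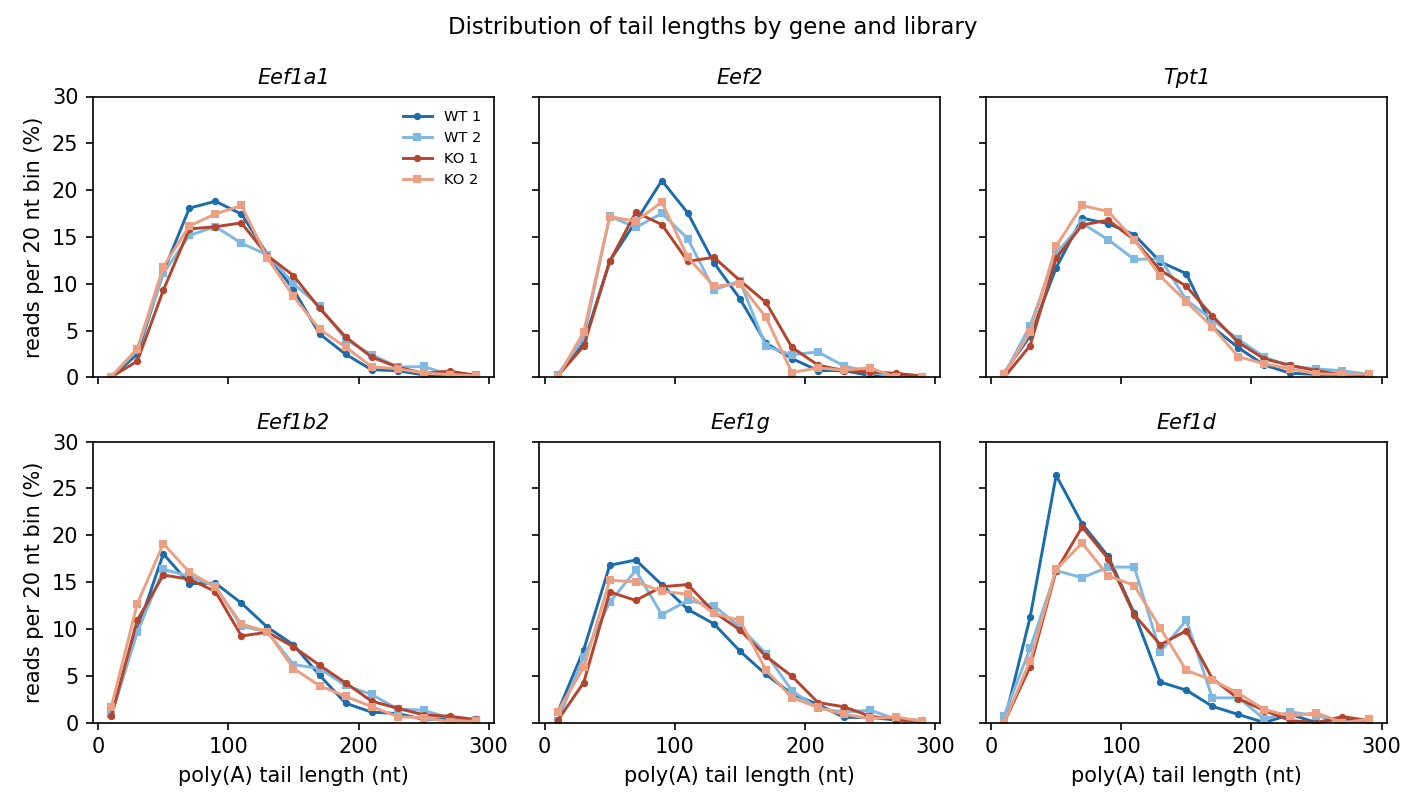
Share of each gene's reads in tail length bins of 20 nt, up to 300 nt, with 1 line per library. Eef1b2 peaks at 40 to 60 nt in all 4 libraries with a long right side, Eef1a1 peaks at 80 to 120 nt, and the WT 1 line of Eef1d reaches 26.4% at 40 to 60 nt, against 16.2% to 16.4% in the other libraries.

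The study's question was whether tails differ between genotypes, and for these 6 genes no difference passed the test. In the fit over 1935 genes with at least 20 reads in each library, which all 6 passed, limma called 0 genes at an adjusted p of 0.05 (0% of genes tested), and 45 had an unadjusted p under 0.05, none of them a member. The largest difference was that of Eef1d, with 79.4 nt ± 17.8 (SD, n = 2) in WT and 88.8 nt ± 3.02 in KO, a KO minus WT difference of 0.18 ± 0.13 (SE) on the log2 scale (limma, Benjamini-Hochberg adjusted p = 0.9998). This difference of 9.44 nt was smaller than the gap of 25.1 nt between the WT replicates. Without WT 1 it was -0.05, and without WT 2 it was 0.41 (limma, adjusted p = 0.0569). Over its alternatives the adjusted p ran from 0.0569 to 1.00.

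Eef1a1 averaged 102.8 nt ± 4.83 (SD, n = 2) over the WT libraries and 104.9 nt ± 4.89 over KO, a KO minus WT difference of 0.03 ± 0.08 (SE) on the log2 scale. Eef1b2 had 89.3 nt ± 0.813 and 84.9 nt ± 5.77, a KO minus WT difference of -0.08 ± 0.09 (SE) on the log2 scale. For Eef1g, Eef2 and Tpt1 the log2 changes were 0.05, 0.02 and -0.03, with standard errors of 0.11, 0.12 and 0.09. The adjusted p was 0.9998 for each of these genes (limma). In none of the 6 genes were the medians of the WT and KO libraries separate. Over all genes tested 14.7% had both KO medians above both WT medians and 11.8% below. As a difference from the median of all reads, Eef1a1 was higher in both KO libraries and Eef1b2 lower in both. The share of all genes separate on that measure was not counted. With centred libraries the adjusted p was 0.994 for both genes (limma). The median log2 change was 0.03 over the members and 0.01 over all genes tested.

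The share of tails of 150 nt or more was tested in the same way, as log2 odds, and limma again called 0 of 1935 genes (0% of genes tested), with 64 at an unadjusted p under 0.05 and no member among them. Eef1d had 6.06% in WT 1 and 13.2% in WT 2, and 14.5% in KO 1 and 13.2% in KO 2. WT 2 and KO 2 were nearly equal, and WT 1 alone was low. It was the only 1 of the 6 genes whose libraries were separate upward in KO, where 14.3% of all genes tested were so. Its change in log2 odds was 0.68 with a standard error of 0.41 (limma, adjusted p = 0.9997), and 0.08 without WT 1. For Eef2 the shares were 10.4%, 15.7%, 19.2% and 13.8% in WT 1, WT 2, KO 1 and KO 2, a change of 0.41 with a standard error of 0.41 (limma, adjusted p = 0.9997). With the limit of a long tail at 200 nt the change of Eef2 was 0.017. The other members had changes from -0.15 (Tpt1) to 0.17 (Eef1g).

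Read number was lower in KO for most members, but no member passed the test with all libraries kept. Limma's voom fit over the 4815 genes averaging at least 10 reads per library, after median-of-ratios scaling, made 1 call, Mov10 (0.0208% of genes tested, adjusted p = 0.0335), and 500 genes had an unadjusted p under 0.05. In bulk RNA fewer cells of a type and less RNA per cell cannot be told apart. Eef1a1 had 11993 and 8737 scaled RPM in WT 1 and WT 2, against 7929 and 7551 in KO 1 and KO 2. Its mean was thus 10365 ± 2302 (SD, n = 2) in WT and 7740 ± 267 in KO, a KO minus WT difference of -0.40 ± 0.19 (SE) on the log2 scale (limma, unadjusted p = 0.0449, adjusted p = 0.463). The WT libraries were further apart than the genotype means. Without WT 2 the log2 change was -0.63, and without WT 1 it was -0.15. Both its size and whether it passed the threshold thus depended on which WT library was kept. Over the alternatives that kept all libraries, limma's adjusted p ran from 0.254 with the replicate block to 0.557 with limma-trend.

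Eef1b2 had 4984 and 4588 scaled RPM in WT and 4285 and 3899 in KO, a KO minus WT difference of -0.22 ± 0.19 (SE) on the log2 scale (limma, adjusted p = 0.725). It and Eef1a1 were the 2 members with both KO libraries below both WT libraries on this scale, 2 of 6 members against 20% of all genes tested. Eef2 had a log2 change of -0.29, Eef1g -0.25 and Tpt1 -0.15, with overlapping libraries and adjusted p-values of 0.722, 0.748 and 0.854 (limma). Eef1d had 0.00 with a standard error of 0.24. The median over the 6 genes was -0.23, against 0.00 over all genes tested. When libraries were instead scaled to their total reads, all genes together had a median of 0.11 and the 6 members one of -0.13. On that scaling Eef1a1 had -0.31, Eef2 -0.19, Eef1g -0.15, Eef1b2 -0.11, Tpt1 -0.05 and Eef1d 0.12. Without WT 1, Eef2 had 0.04 and Tpt1 0.12.

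**Figure D4:**
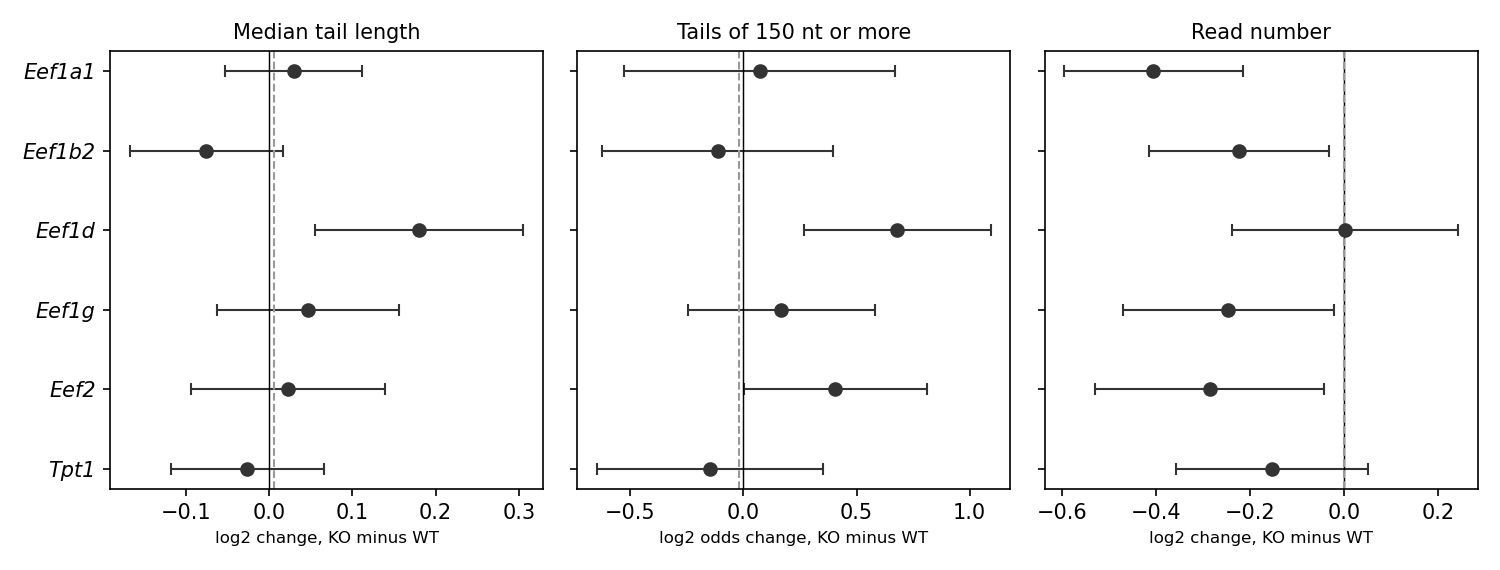
Fitted KO minus WT changes of the 6 genes in median tail length, in the odds of a tail of 150 nt or more and in read number, each with its standard error; dashed grey lines mark the median of all genes tested. No member passed an adjusted p of 0.05, and Eef1a1 has the lowest read number change at -0.40.

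The members also differed in how many annotated transcripts carried their reads. All 1954 Eef2 reads lay on 1 transcript, and 99.9% of Eef1a1 reads lay on its main transcript. Reads outside the main transcript made up 18.2% and 37.4% of Eef1d reads in WT 1 and WT 2, and 40.5% and 26.5% in KO 1 and KO 2. For Eef1g the shares were 7.78%, 26.7%, 31.5% and 20.2%, for Tpt1 2.94%, 10.2%, 12.8% and 10.4%, and for Eef1b2 2.53%, 7.10%, 7.43% and 5.37%. WT 1 was lowest in each of the 4 genes, and for Eef1g its Wilson 95% interval reached 9.97%, under the 17.4% at which that of KO 2 began. The median share over the 227 genes was also lowest in WT 1, at 3.32%, against 7.07% to 7.65% in the other libraries. These shares were compared after the libraries had been seen. On the most abundant transcript alone, the KO minus WT differences in log2 median tail were 0.18 for Eef1d, 0.03 for Eef1g, -0.02 for Tpt1 and -0.07 for Eef1b2, against 0.18, 0.05, -0.03 and -0.08 on all reads.

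**Figure D5:**
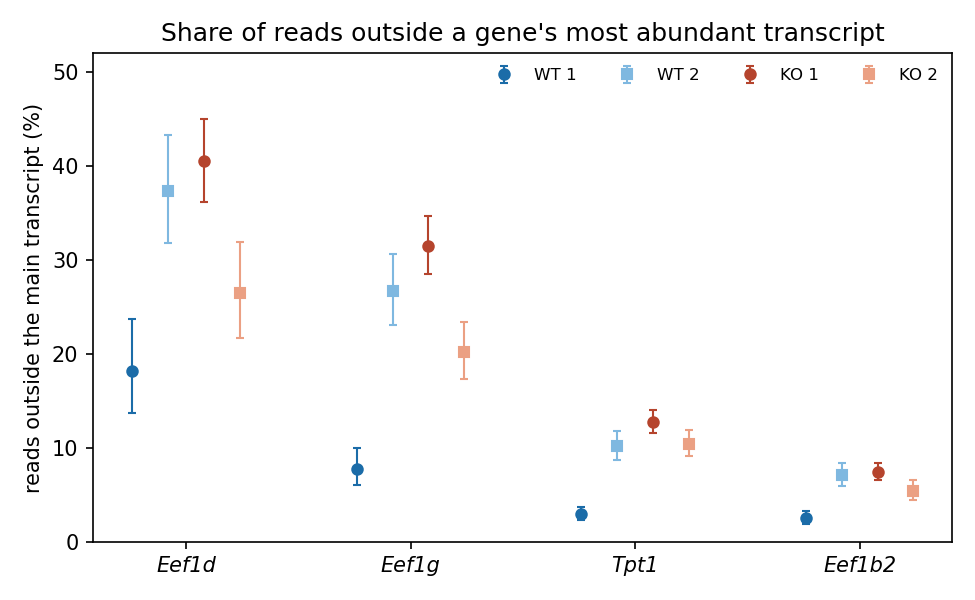
Share of reads outside the most abundant transcript of Eef1d, Eef1g, Tpt1 and Eef1b2 in the 4 libraries, with Wilson 95% intervals. WT 1 is lowest for every gene shown, at 18.2%, 7.78%, 2.94% and 2.53%.

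The tail lengths of the main and second transcripts overlapped. The second Eef1g transcript (ENSMUST00000135025.1, 55 to 280 reads per library) had medians of 89.2 nt in WT 1, 96.5 nt in WT 2, 104.1 nt in KO 1 and 102.1 nt in KO 2. Its mean difference from the main transcript (ENSMUST00000052248.7) was -1.95 nt ± 6.74 (SD, n = 4), and it was longer in 1 of 4 libraries. For Tpt1 the second transcript (ENSMUST00000142061.2, 61 to 347 reads) differed from the main one (ENSMUST00000110894.8) by -0.840 nt ± 3.39 (SD, n = 4).

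Class columns of the deposited table marked Eef1b2, Eef1d, Eef1g and Tpt1 (4 members) as Mov10 targets without m6A, a methylated adenosine. Eef2 was the only one classed as a Mov10 target with m6A, Eef1a1 was in no class, and none was a non-target. The source of the classes is not stated. The shares of all genes in each class were not counted, so the classes are a description of the members only.

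The genes whose medians were most like those of each member were found among the 227 genes, by the root mean square difference of log2 medians over the 4 libraries. For Tpt1 they were Rps12 (0.01), Rpl23a (0.02) and Rpl23 (0.03), and for Eef1g they were Rpl37a (0.02), Rpl29 (0.03) and Eif3k (0.03). For Eef1a1 they were Elob (0.02), Rplp1 (0.03) and Rps25 (0.03), and for Eef2 they included Ran (0.04) and Tpt1 (0.04). Eef1b2 was nearest to Rpl32 (0.04), Rpl24 (0.04) and Rps19 (0.05). Eef1d had no gene as close: Psmb7 (0.10), Psmb6 (0.13) and Hspa8 (0.15) were nearest. All genes share the same 4 libraries, so the values are a description.

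Few other genes of the elongation cycle had enough reads for a test of tail length, the members having been chosen as highly expressed. Of 29 listed cofactors, modifying enzymes and ribosome rescue factors, 26 were in the table, 14 were tested for read number and 6 for tail length, and limma called 0 in either test. Unadjusted p-values under 0.05 numbered 1 and 0. For read number 6 of the 14 were higher in KO and 8 lower, 3 and 4 of them with libraries that did not overlap (20.5% and 20% of all genes tested), and the median log2 change was -0.06. Eif5a, a factor that helps ribosomes through difficult peptide bonds, had 388, 218, 386 and 453 reads in WT 1, WT 2, KO 1 and KO 2. In scaled RPM Eif5a had 979, 601, 548 and 1010, a KO minus WT difference of -0.07 ± 0.29 (SE) on the log2 scale (limma, adjusted p = 0.957). Its medians were 101.5, 119.9, 115.4 and 109.4 nt. Eef2k, the kinase that inhibits eEF2, had 4 and 3 reads in WT and 19 and 16 in KO. In scaled RPM Eef2k had 10.1 and 8.28 in WT and 27.0 and 35.7 in KO, a KO minus WT difference of 1.58 ± 0.79 (SE) on the log2 scale (limma, adjusted p = 0.505). Eef1akmt1, an eEF1A methyltransferase, had 21, 15, 71 and 36 reads in WT 1, WT 2, KO 1 and KO 2. In scaled RPM Eef1akmt1 had 53.0, 41.4, 100.9 and 80.3, a KO minus WT difference of 0.93 ± 0.36 (SE) on the log2 scale (limma, adjusted p = 0.370).

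Of the 5 mitochondrial elongation factor genes 3 were tested for read number, and limma called 0, with 0 unadjusted p-values under 0.05. Their median log2 change was 0.29. All 3 were higher in KO, 2 of them with libraries that did not overlap (20.5% of all genes tested were so). Tsfm had 55.5 and 30.3 scaled RPM in WT 1 and WT 2, and 76.7 and 66.9 in KO 1 and KO 2. Its KO minus WT difference was 0.77 ± 0.39 (SE) on the log2 scale (limma, adjusted p = 0.508). Tufm, the mitochondrial counterpart of Eef1a1, had 73.2 and 110.3 scaled RPM in WT 1 and WT 2, and 86.7 and 147.2 in KO 1 and KO 2. Its genotypes overlapped, with a KO minus WT difference of 0.29 ± 0.34 (SE) on the log2 scale (limma, adjusted p = 0.826).

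Other TOP messages, outside the ribosomal proteins, were measured for 22 of 24 listed genes, all of them tested. Limma called 0 for tail length and 0 for read number, with 1 unadjusted p under 0.05 in each. Their median log2 change in tail length was 0.05, with 5 genes whose KO libraries both lay above WT (14.7% of all genes tested were so). The smallest p was that of Eif3l, an initiation factor 3 subunit, with medians of 73.8 nt in WT 1, 87.3 nt in WT 2, 102.8 nt in KO 1 and 104.6 nt in KO 2. Both KO medians were higher, and the log2 change was 0.37 with a standard error of 0.14 (limma, adjusted p = 0.9998). For read number their median was -0.06, against -0.23 over the members and -0.23 over 83 ribosomal protein genes, of which limma called 0, with 14 unadjusted p-values under 0.05. In tail length the 81 ribosomal protein genes tested had a median log2 change of -0.02, with 21 higher in KO and 60 lower. Both KO libraries lay below WT in 17 of them (11.8% of all genes tested were so) and above in 0. Limma called 0 of these genes for tail length.

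Of 12 regulators of TOP messages 10 were tested for read number and 5 for tail length, and limma called 0 in either test, with 1 and 0 unadjusted p-values under 0.05. For read number their median log2 change was 0.43, against 0.00 over all genes tested, with 7 higher in KO and 3 lower. In 5 of them both KO libraries lay above both WT libraries, and in 0 below (20.5% and 20% of all genes tested). Larp1, which binds the TOP start, had 65.6 and 66.2 scaled RPM in WT and 99.5 and 120.4 in KO, a KO minus WT difference of 0.70 ± 0.33 (SE) on the log2 scale (limma, adjusted p = 0.463). Eif4ebp1, a target of mTOR that inhibits initiation, had 999, 726, 740 and 874 scaled RPM in WT 1, WT 2, KO 1 and KO 2, with overlapping genotypes.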

How the data were processed

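Tail lengths came from 1 deposited table with 1 row per read, giving a transcript, a gene symbol, a library and a tail length. Per the file header this is the only measured column. It is a length in nt, neither a count nor a normalized value. Per the labels' protocols the authors enriched polyadenylated RNA on oligo(dT) beads and prepared it with the SQK-RNA002 kit and barcode adapters. Per the submitters' processing notes minimap2 2.20 was used. The tool behind tail lengths, the basecaller, the annotation version and any read filter are not given in the sources used here.

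Of 1903922 rows, 3 with a length of 0 were left out. Each gene got 1 value per library, and libraries were mapped by their titles. Symbols were used as deposited: 53.4% of reads lay on transcripts with more than 1 symbol, but at least 99.7% of reads on each member's main transcript carried its symbol. Of all symbols 13590 matched a table of mouse gene names.

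Tail length (log2 median) and the log2 odds of a tail of 150 nt or more, with 0.5 added to both counts, were tested with limma 3.58.1 in R 4.3.3, with log2 mean read number as trend, for genes that reached 20 reads in every library. Reads were counted here and tested with limma's voom (0.5 added, median-of-ratios scaling, mean of at least 10 reads). P-values were adjusted by Benjamini-Hochberg over all genes tested, at a threshold of 0.05. Intervals over reads were exact order-statistic, binomial or Wilson 95% intervals and cover read sampling only. The fits were tested on simulated data with known changes. The tail length fit recovered 79% of changes of 0.5 log2. Simulated tail lengths had the same spread in every gene and no shift shared by the genes of a library. The 79% may therefore not hold for these libraries. The read number fit recovered 11% of changes of 1 log2 and 71% of changes of 2. The long tail fit recovered 15% of changes of 1 in log2 odds and 60% of changes of 2. False calls numbered 4 for tail length, 0 for read number and 2 for long tails. A gene that was not called may thus still differ between genotypes. Tables were made with Python 3.11.15, pandas 2.3.3, numpy 2.4.6 and scipy 1.17.1.

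The members and lists were chosen with earlier results of these data known. Members were always named, with the 3 genes most like each (1 of them is not reported here) and, of each list, genes past the threshold or else those with the smallest p or most reads. Alternatives changed the summary, read minimum, centring, transcripts, scaling, model, limit of a long tail and replicate block, or left out each library.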

Additional observations from a re-analysis of the deposited data

How the results depend on the processing

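Leaving out single libraries moved small values across 0. With each library left out, genes called by limma ranged from 0 to 2 for tail length, from 0 to 456 for read number and from 0 to 9 for the share of long tails, where the full fits called 0, 1 and 0. The members' median log2 change ranged from -0.038 to 0.076 in tail length and from -0.40 to -0.10 in read number. Tail length changes ranged from -0.018 to 0.077 for Eef1a1, -0.14 (without KO 1) to -0.0058 (without KO 2) for Eef1b2, -0.050 to 0.41 for Eef1d, -0.057 to 0.15 for Eef1g, -0.029 to 0.075 for Eef2 and -0.071 to 0.019 for Tpt1. Read number changes ranged from -0.63 to -0.15 for Eef1a1, -0.28 to -0.13 for Eef1b2, -0.14 to 0.16 for Eef1d, -0.40 to -0.068 for Eef1g, -0.58 to 0.039 for Eef2 and -0.40 to 0.12 for Tpt1. Changes in the log2 odds of a long tail ranged from -0.36 to 0.50 for Eef1a1, -0.52 to 0.30 for Eef1b2, 0.075 to 1.28 for Eef1d, -0.13 to 0.46 for Eef1g, 0.067 (without WT 1) to 0.75 (without WT 2) for Eef2 and -0.36 to 0.068 for Tpt1. A genotype with 1 library left was assumed to vary like the other.

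Read number calls numbered 7 with scaling by total reads, 96 without a filter, 0 with a mean of at least 50 reads, 0 with limma-trend and 65 with the replicate number as a block. The numbers did not pair the libraries: over genes, deviations of same-numbered libraries correlated at 0.01 for tail length and 0.02 for read number. The block called no member. The 1 call of the full fit was Mov10, whose adjusted p ran from 2.06e-06 to 0.993 over the alternatives that tested it.

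On transcripts with a single symbol, which left only Eef1b2, Eef1d and Tpt1 to test, the members' median was -0.093 for tail length and 0.37 for read number, with 0.37 for Eef1b2, -0.011 for Eef1d and 0.92 for Tpt1; only minor transcripts of Eef1b2 and Tpt1 remained. The read number change of Eef1d was -0.000772 with a mean of at least 50 reads, -0.000594 with limma-trend and -0.00435 on transcripts with at least 99% of reads of 1 symbol, a setting added after the data were seen. Other alternatives that kept all libraries left each member's direction and call as they were.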
